A study of Mus musculus with 9 samples.

Results

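Ribosomal protein genes were examined in the testes of 3-week-old mice, together with the retrocopies and other paralogs that resemble them. The members were the rows of the expression table whose gene symbol begins with Rpl, Rps, Rplp or Rpsp followed by a digit, without the 9 rows of the Rps6k kinases, which carry a similar symbol but encode no part of the ribosome. The rule found 94 members among 22337 genes. Of these, 76 are cytosolic ribosomal proteins, with 30 in the small (40S) and 46 in the large (60S) subunit. A further 8 are paralogs, 8 carry a symbol that marks a pseudogene (-ps), and 2, Rps19bp1 and Rps23rg1, are not ribosomal proteins.

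A ribosome holds a single copy of nearly every ribosomal protein, so cells make these messages in matched and large amounts, and these messages typically begin with a stretch of pyrimidines through which growth signals control their translation. Male germ cells meet a particular problem. The X chromosome is silenced while spermatocytes pass through meiosis, and it carries several ribosomal protein genes. Copies of some of them, made by reverse transcription of a spliced message and inserted on an autosome, are known to be expressed in germ cells. Rpl10l and Rpl39l are the best studied of these, and Rpl10l is known to be needed for meiosis in male mice.

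RNA was sequenced from whole testes of 9 mice, all 3 weeks old, of which 3 were wild-type, 3 were Piwil4 WT/R264W (heterozygous) and 3 were Piwil4 R264W/R264W (homozygous). The R264W substitution, brought in with CRISPR-Cas9, lies in PIWIL4, a nuclear PIWI protein that guides silencing of retrotransposons in fetal germ cells. Every cell of the animal carries it, and the heterozygous mice keep a wild-type allele. In mice of this age germ cells of the first wave have been brought into meiosis and, in part, to round spermatids. The labels do not say whether the mice came from separate litters, so p-values measure the spread between these testes.

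Libraries held between 17.96 and 24.3 M estimated counts (median 20.2 M), and no pair of them held identical values. Piwil4 itself had between 18 and 46 counts per testis. The allele is a missense change, so these counts do not check the labels. The progress of the first wave was scored in each testis as the mean log2 CPM (counts relative to the scaled library size) of 20 round spermatid genes, such as Acrv1, Tnp1 and Prm1, none of which is a ribosomal protein gene. The score was 6.24, 3.21 and 2.13 in wild-type testes, 5.34, 4.09 and 1.58 in the heterozygous and 3.06, 4.201 and 6.07 in the homozygous ones. The scores of the genotypes overlapped, but the scores of 1.58 and 2.13 had no counterpart among the homozygous testes, whose lowest was 3.06. Summed markers of other cells overlapped between the genotypes. They ranged from 1679 to 2574 CPM over the 9 testes for 8 early spermatocyte genes and from 7934 to 10581 for 10 late spermatocyte genes. The range was 168 to 252 for 8 spermatogonial genes and 1429 to 2103 for 10 Sertoli cell genes, with no gene of these 4 lists at 0. It was 151 to 386 CPM for 6 Leydig cell genes and 113 to 246 for 4 peritubular genes. For 3 blood genes it was 61.5 to 247, and for 4 macrophage genes 24.6 to 33.1.

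The coding sequences of the paralogs decide how well their reads can be told from those of the parent gene, so the pairs on which the results turn are shown first. They come from the GENCODE M21 annotation of the GRCm38 build, while the submitters' processing notes name mm39, and for this reason genes are placed by chromosome only. Rpl10l is a single-exon gene on chromosome 12, and its parent Rpl10 lies on the X chromosome. Their coding sequences, both of 645 bases, differed by 98 substitutions (84.8% identity) and shared no stretch of 50 bases. The first 150 bases held 25 of the differences, which are in capitals:
Rpl10l: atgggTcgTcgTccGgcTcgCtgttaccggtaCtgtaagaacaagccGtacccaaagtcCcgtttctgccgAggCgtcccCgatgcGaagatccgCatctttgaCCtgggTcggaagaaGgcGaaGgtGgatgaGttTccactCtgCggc
Rpl10: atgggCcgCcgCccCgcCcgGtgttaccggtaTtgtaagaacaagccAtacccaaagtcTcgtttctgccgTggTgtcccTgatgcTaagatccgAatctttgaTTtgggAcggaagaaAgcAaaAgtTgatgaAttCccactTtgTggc

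Rpl39l, on chromosome 16 and annotated with 3 exons, and its X-linked parent Rpl39 are among the smallest genes of the ribosome. Over 156 coding bases they differed at 23 positions (85.3% identity), again with no shared stretch of 50 bases. The whole coding sequences are shown, with the differing bases in capitals:
Rpl39l: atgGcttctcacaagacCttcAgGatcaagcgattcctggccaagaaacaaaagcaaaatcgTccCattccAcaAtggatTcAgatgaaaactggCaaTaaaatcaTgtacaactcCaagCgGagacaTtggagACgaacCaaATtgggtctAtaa
Rpl39: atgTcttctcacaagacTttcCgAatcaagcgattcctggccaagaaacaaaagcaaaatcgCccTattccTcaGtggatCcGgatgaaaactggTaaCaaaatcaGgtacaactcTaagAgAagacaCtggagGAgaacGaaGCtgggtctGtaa

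Rps27rt, a single-exon retrocopy on chromosome 9, stood apart from these. Its coding sequence matched that of Rps27 (chromosome 3) at all 255 of 255 bases, so that reads from within it cannot be assigned to either gene. The shared sequence, with no base in capitals because none differs, is:
Rps27rt: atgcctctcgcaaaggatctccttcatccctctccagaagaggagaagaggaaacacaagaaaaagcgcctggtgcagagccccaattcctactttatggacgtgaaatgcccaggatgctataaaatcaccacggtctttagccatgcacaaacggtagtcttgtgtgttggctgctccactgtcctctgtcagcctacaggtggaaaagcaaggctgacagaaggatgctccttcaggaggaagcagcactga

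Rpl10-ps3 on chromosome 9, a pseudogene by its symbol but protein-coding in GENCODE M21, likewise matched all 645 coding bases of Rpl10. Rpl36al, a single-exon copy of the X-linked Rpl36a on chromosome 12, was 87.9% identical to its parent, and the other paralogs were further apart, at 76.1% for Rps27l and Rps27, 73.2% for Rpl3l and Rpl3, 66.9% for Rpl22l1 and Rpl22 and 52.8% for Rpl7l1 and Rpl7. None of these 5 pairs shared a stretch of 50 bases. The pseudogenes Rpl9-ps6, Rps18-ps5 and Rps18-ps6 were between 99.1% and 99.8% identical to their parents. Counts of Rps27rt, Rpl10-ps3 and these pseudogenes are therefore uncertain, and 37 members had counts that were not whole numbers in at least 1 library. Among these were Rpl10, Rps27 and Rpl36al, with such counts in all 9 libraries. Rpl10l, Rpl39l, Rpl39 and Rpl36a had them in 0 libraries.

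The annotated starts of the genes were read from RefSeq promoters (GRCm38.p6) for the pyrimidine pattern named above, here a C at the start base followed by 4 bases that are each C or T, on the strand of the gene. It was present in 13 of the 56 ribosomal proteins with a promoter entry (23.2%) and in 813 of 27025 genes with one (3.01%). Among the 8 paralogs only Rps27rt carried it at the annotated start. The pattern was read at the annotated base only, and whether the messages begin at that base was not tested. These shares are therefore not shares of messages with a pyrimidine start. For Rps27, Rps27rt, Rpl10 and Rpl10l, 15 bases before the start and 15 from it are shown, with the 5 bases read for the pattern in capitals:
Rps27: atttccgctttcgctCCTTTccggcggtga
Rps27rt: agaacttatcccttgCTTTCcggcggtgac
Rpl10: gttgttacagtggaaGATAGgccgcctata
Rpl10l: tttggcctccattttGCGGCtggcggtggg

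Messages of the ribosomal proteins were present in unequal amounts. On the FPKM scale, which is per length of the message, the mean over the 9 testes had a median of 243 across the 30 proteins of the 40S subunit (range 44.3 to 676) and of 224 across the 46 proteins of the 60S subunit (range 13.5 to 771). The 3 highest members were Rplp0, a protein of the 60S stalk, with a mean FPKM of 771 ± 60.5 (SD, n = 9), Rps24, of the 40S subunit, with 676 ± 71.0, and Rpl13, of the 60S subunit, with 637 ± 48.8. The lowest of the 76 ribosomal proteins was the X-linked Rpl39, with 13.5 ± 3.22. Rpl39l, at 139 ± 6.93, and Rpl10l, at 265 ± 25.0, reached the levels of ordinary ribosomal proteins, whereas Rpl3l and Rps27rt had mean FPKM of 0.441 and 1.87.

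**Figure D1:**
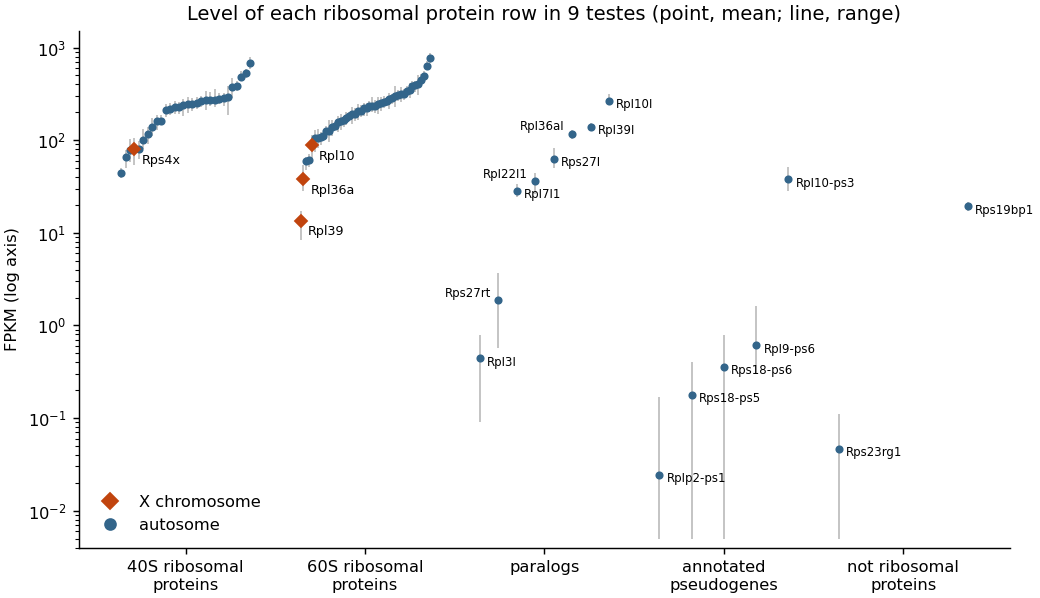
Mean FPKM of each member over the 9 testes on a log axis, by class, with a line from the lowest to the highest testis (lines that reach the lower edge include a testis at 0) and X-linked genes as diamonds. The X-linked Rpl39 is the lowest ribosomal protein at 13.5 FPKM, and the paralogs run from 0.441 for Rpl3l to 265 for Rpl10l; 3 pseudogenes at 0 in every testis are not drawn.

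Most of the pseudogene rows were close to the detection limit. Rpl36a-ps1, Rpl36-ps4 and Rpl9-ps1 were listed at 0 in every library, and Rplp2-ps1 at 0 in 7 of 9. Rps18-ps5, Rps18-ps6 and Rpl9-ps6 had median counts of 2.01, 3.62 and 8.34. Rps19bp1, a partner of Rps19 rather than part of the ribosome, had a mean FPKM of 19.3, and Rps23rg1, a retrogene of Rps23 with another function, one of 0.0467. In all, 86 of the 94 members passed the filter on low counts, the other 8 being 7 pseudogenes and Rps23rg1.

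Rpl10l carried most of the message of its pair. Its FPKM was 246, 263 and 239 in wild-type testes, 263, 319 and 238 in Piwil4 WT/R264W and 265, 265 and 283 in Piwil4 R264W/R264W. Rpl10, which encodes a protein that joins the 60S subunit late in its assembly, had an FPKM of 59.4, 94.3 and 95.1 in wild-type, 73.7, 78.6 and 114 in Piwil4 WT/R264W and 102, 105 and 66.9 in Piwil4 R264W/R264W. Rpl10l was above Rpl10 in 9 of 9 testes, and the lowest Rpl10 values were in the testes of highest stage score. The ratio of Rpl10l to Rpl10 ran from 2.09 to 4.24 (median 2.79), so that Rpl10l made up between 67.7% and 80.9% of the pair. Because Rpl10-ps3 has the coding sequence of Rpl10, the FPKM of both were also added. Rpl10-ps3 took between 25.9% and 39.0% of the counts of the 2 genes, and Rpl10l remained above their sum in all 9 testes, with a ratio of 1.44 to 2.97.

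For Rpl39, a short protein that lines the exit tunnel of the ribosome, the difference was wider. Its X-linked message had an FPKM of 8.28, 16.5 and 16.6 in wild-type testes, 10.1, 12.6 and 17.1 in Piwil4 WT/R264W and 13.9, 15.3 and 10.6 in Piwil4 R264W/R264W. Rpl39l stood at 138, 136 and 130.1 in wild-type testes, at 139, 153 and 134 in Piwil4 WT/R264W and at 136, 138 and 146 in Piwil4 R264W/R264W. Rpl39l varied little between testes, and every value of it was above every value of Rpl39. The ratio was between 7.82 and 16.6 (median 9.77), or 88.7% to 94.3% of the pair.

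Rpl36al, which is widely expressed and not restricted to germ cells, also exceeded its X-linked parent. Rpl36a had an FPKM of 28.2, 38.7 and 45.5 in wild-type testes, 31.8, 35.2 and 53.5 in Piwil4 WT/R264W and 40.3, 38.5 and 29.8 in Piwil4 R264W/R264W. Rpl36al had 104, 114 and 128 in wild-type, 118, 115 and 122 in Piwil4 WT/R264W and 119.9, 122 and 113 in Piwil4 R264W/R264W testes. The ratio ran from 2.27 to 3.81 (median 3.18), and Rpl36al was the higher in 9 of 9 testes. The 4th ribosomal protein on the X chromosome, Rps4x of the 40S subunit, had an FPKM of 54.4, 82.2 and 97.3 in wild-type, 68.1, 73.5 and 106 in Piwil4 WT/R264W and 84.0, 93.4 and 60.6 in Piwil4 R264W/R264W. The rule found no row with the symbol Rps4l, a relative of Rps4x.

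The other paralogs stayed below their parents in every testis. Rps27l, a stress-responsive relative of Rps27, had 0.324 to 0.435 of the FPKM of Rps27, which encodes a 40S protein. Rpl22l1 had 0.303 to 0.524 of Rpl22, and Rpl7l1, a relative of Rpl7, 0.104 to 0.126 of its parent. Rps27rt amounted to between 0.353% and 1.899% of its pair with Rps27. Rpl3l, the form of Rpl3 of heart and skeletal muscle, had between 1 and 14 counts per testis, where the 6 striated muscle markers summed to between 2.18 and 7.47 CPM.

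**Figure D2:**
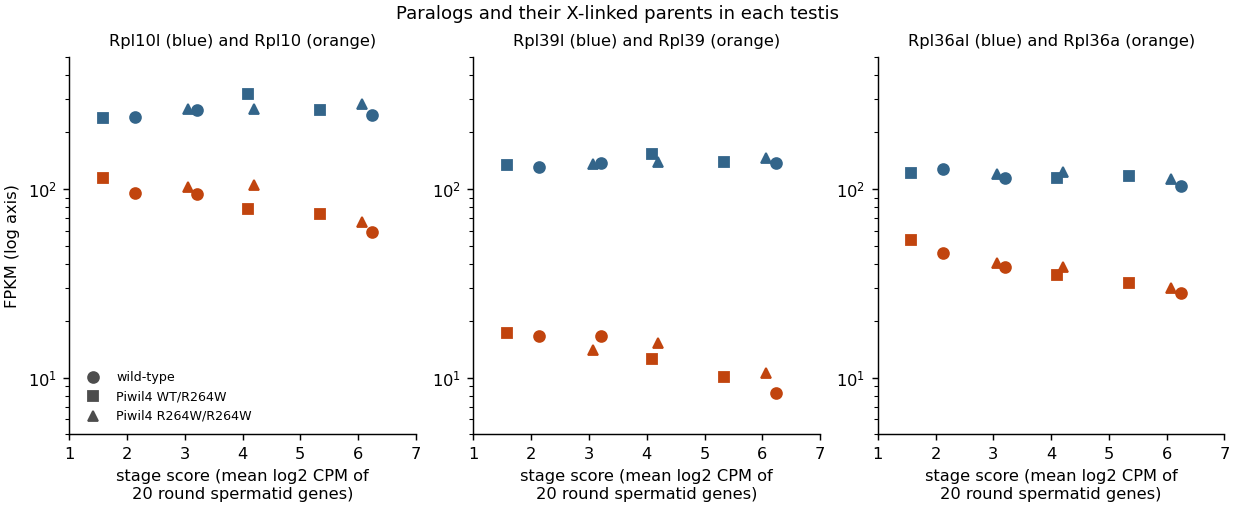
FPKM (log axis) of the paralog in blue and its X-linked parent in orange in each of the 9 testes, against the stage score, with the genotype as the shape of the point. The blue points of Rpl39l stay between 130.1 and 153 while Rpl39 lies at 17.1 in the testis of lowest score and 8.28 in that of highest score.

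The question of how the ribosomal protein messages move as the first wave proceeds was addressed by fitting the stage score as a continuous term across all 9 testes, with genotype as a second term, in edgeR's quasi-likelihood test over 15771 genes. A unit of the score is a step of 1 on the log2 scale in the mean of the spermatid genes. Of the 86 members tested, 27 fell with the score and 0 rose at an adjusted p under 0.05, where 8.63% of all genes tested fell and 17.6% rose. DESeq2 gave 25 falling and 0 rising, with 5.71% of its 19607 genes falling and 15.2% rising. At an unadjusted p under 0.05 the quasi-likelihood test gave 36 members falling and 2 rising (Rpl10l and Rpl39l), where 17.4% of all genes fell and 21.8% rose. The median change was -0.04 log2 per unit among these members and -0.01 among all genes. Because RNA came from whole testes, fewer cells of a type and less RNA per cell cannot be told apart in these values.

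The count of 27 was 1 (Rpl22) without the 2 testes farthest from the median score, where 0.226% of all genes fell. It was 11 without wild-type replicate 1 (2.39% of all genes), 12 without wild-type replicate 3 (2.32%), 14 without Piwil4 WT/R264W replicate 3 (3.81%), 14 without homozygous replicate 3 (2.65%) and 17 without homozygous replicate 2 (5.77%). With libraries scaled by their totals alone it was 57, with 21.5% of all genes falling and 14.7% rising. With limma on log2(FPKM + 0.1) it was 53, with 18.3% falling and 14.9% rising. With a single library left out it was at most 35, without Piwil4 WT/R264W replicate 2, where 1795 of 16074 genes fell. Rising members were then at most 3, without Piwil4 WT/R264W replicate 1, where 3425 of 15990 genes rose.

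All 4 X-linked ribosomal proteins fell with the score. Rpl39 fell with a log2 change of -0.18 per unit of score (SE 0.04, adjusted p = 0.00608, edgeR). The change was -0.16 for Rps4x (SE 0.02, adjusted p = 0.000326), -0.15 for Rpl10 (SE 0.03, adjusted p = 0.000642) and -0.15 for Rpl36a (SE 0.03, adjusted p = 0.00149). Of the autosomal ribosomal proteins, 21 of 72 fell. Among all genes of the X chromosome that were tested, 101 of 726 fell (13.9%) and 161 rose (22.2%). Among all autosomal genes tested, 8.36% fell and 17% rose. The median slope was -0.05 log2 per unit on the X chromosome and -0.01 on the autosomes. The 4 were again past the threshold in DESeq2, and 3 of the 4 were without wild-type replicate 1, the testis of highest score. Without the 2 testes farthest from the median score none of the 4 was, with slopes between -0.15 and -0.12.

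Of the autosomal members, Rpl22, which encodes an RNA-binding 60S protein on chromosome 4, had the smallest p. Its FPKM was 75.4, 108 and 120.4 in wild-type testes, 86.9, 106 and 129.7 in Piwil4 WT/R264W and 120.1, 113 and 81.5 in Piwil4 R264W/R264W. The lowest value of each genotype was in its testis of highest score, and the message fell, with a log2 change of -0.15 per unit (SE 0.02, adjusted p = 0.000255). Rpl14, also of the 60S subunit and on chromosome 9, had a log2 change of -0.12 per unit (SE 0.02, adjusted p = 0.00124). Counted by subunit, 9 of 30 proteins of the 40S and 16 of 46 of the 60S subunit fell. Of the 72 autosomal ribosomal proteins 65 had a negative slope, with a median of -0.04 log2 per unit. Of all autosomal genes tested, 8237 of 14894 had one, with a median of -0.01. The most positive slope of a ribosomal protein was that of Rpl35, at 0.04 log2 per unit (adjusted p = 0.169), and it did not pass the threshold.

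None of the copies of X-linked genes passed the threshold. Rpl10l had a slope of 0.06 (SE 0.03, adjusted p = 0.114) and Rpl39l of 0.05 (SE 0.02, adjusted p = 0.0756). Rpl36al had a slope of -0.01 (SE 0.02, adjusted p = 0.683). Of the other paralogs, Rps27l fell with a slope of -0.09 (SE 0.02, adjusted p = 0.00946) and Rpl7l1 with one of -0.07 (SE 0.02, adjusted p = 0.0341), while Rpl3l, at -0.38 (SE 0.16, adjusted p = 0.0878), and Rps27rt, at -0.09 (SE 0.14, adjusted p = 0.653), had few counts and wide errors.

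**Figure D3:**
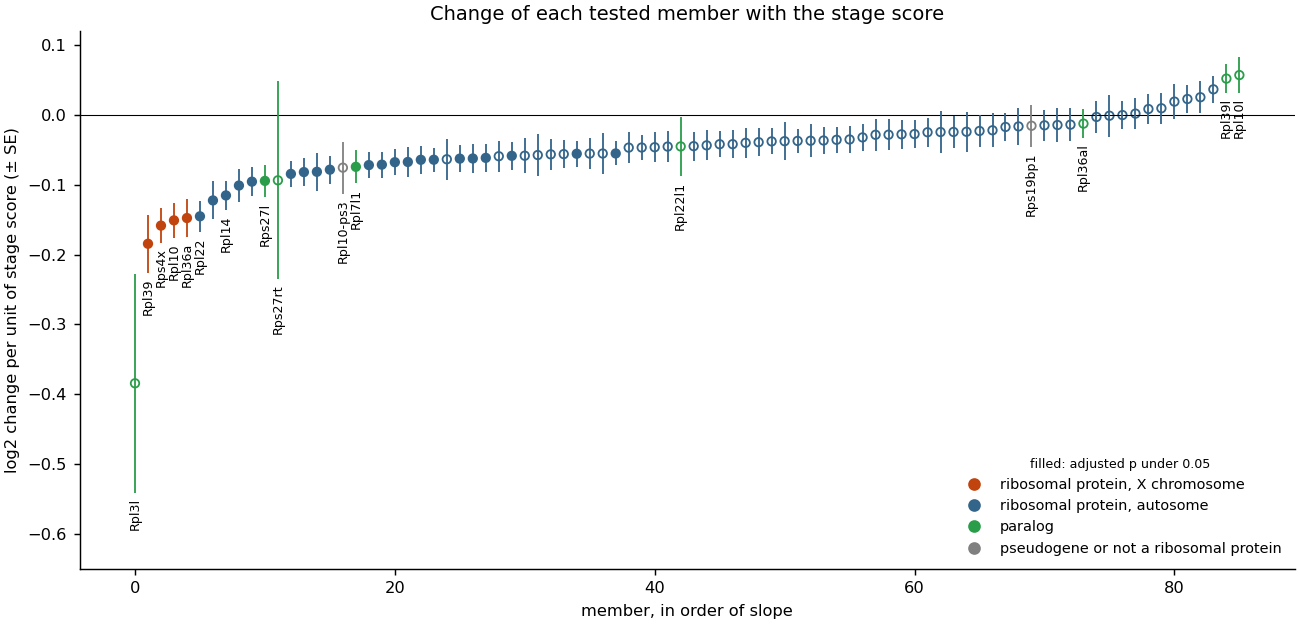
Slope on the stage score of each of the 86 tested members, in order (point, log2 change per unit of score; line, ± SE), filled where the adjusted p was under 0.05. The 4 X-linked ribosomal proteins lie between -0.18 and -0.15, and Rpl10l and Rpl39l are the 2 most positive, with open points.

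Whether paralog and parent parted as the wave proceeded was tested on the ratio itself, as log2 of the FPKM ratio in each testis with 0.1 added to both values, over 8 pairs with Benjamini-Hochberg adjustment. For Rpl36al and Rpl36a, the ratio rose with the score with Pearson's r = 0.95 (exact permutation p = 4.41e-05, adjusted p = 0.000353) and Spearman's rho = 0.92 (exact permutation p = 0.00131, adjusted p = 0.00525). For Rpl39l and Rpl39, r was 0.92 (exact permutation p = 0.000543, adjusted p = 0.00217) and rho 0.92 (exact permutation p = 0.00131, adjusted p = 0.00525). For Rpl10l and Rpl10, r was 0.88 (exact permutation p = 0.00319, adjusted p = 0.00850) and rho 0.85 (exact permutation p = 0.00607, adjusted p = 0.0162), and r was 0.90 when Rpl10-ps3 was added to Rpl10, a choice made after the data had been seen. The ratio of all 3 autosomal copies to their X-linked parents therefore climbed with the score, by 0.14 log2 per unit for Rpl36al, 0.23 for Rpl39l and 0.20 for Rpl10l.

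Without the 2 testes farthest from the median score (a wild-type and a Piwil4 WT/R264W testis), r over the other 7 was 0.98 for Rpl36al (adjusted exact permutation p = 0.00635), 0.88 for Rpl39l (0.0373) and 0.78 for Rpl10l (0.129), so that the last did not hold without them. Spearman's rho over these 7 was 0.93 for Rpl36al (adjusted exact permutation p = 0.0540), 0.82 for Rpl39l (0.137) and 0.71 for Rpl10l (0.219). By rank, therefore, none of these pairs passed 0.05 without the 2 testes. With the genotype means removed from score and ratio, r was 0.95, 0.95 and 0.91, with adjusted exact permutation p = 0.0370, 0.0556 and 0.0556. Rps27l went the other way relative to Rps27, with r = -0.80 (exact permutation p = 0.00745, adjusted p = 0.0149) and rho = -0.65 (exact permutation p = 0.0666, adjusted p = 0.133), and r was -0.64 without those 2 testes (adjusted exact permutation p = 0.228) and -0.83 with genotype means removed (adjusted exact permutation p = 0.0556). No relation to the score was detected for the ratios of Rpl22l1 (r = 0.57, adjusted exact permutation p = 0.142), Rpl3l (r = -0.57, adjusted exact permutation p = 0.142), Rpl7l1 (r = -0.11, adjusted exact permutation p = 0.891) or Rps27rt (r = -0.03, adjusted exact permutation p = 0.947).

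Together the 94 rows made up between 1.34% and 1.76% of a library, less in testes of higher score. Their share of all counts was 1.34%, 1.499% and 1.66% in wild-type testes, 1.45%, 1.70% and 1.76% in Piwil4 WT/R264W and 1.56%, 1.60% and 1.42% in Piwil4 R264W/R264W. The smallest share was in the testis of highest score and the largest in that of lowest score. Summed as CPM, on the scaled library size, the rows were also lowest in the testis of highest score (14300). They were highest in Piwil4 WT/R264W replicate 2 (17021, score 4.09), above the testis of lowest score (16848). The relation of this scaled sum to the score was not tested. Across the 9 testes the share fell with the score (r = -0.83, exact permutation p = 0.00690; rho = -0.82, exact permutation p = 0.0108). Without the 2 testes farthest from the median score r was -0.65 (exact permutation p = 0.116), and with genotype means removed it was -0.89 (exact permutation p = 0.0231).

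**Figure D4:**
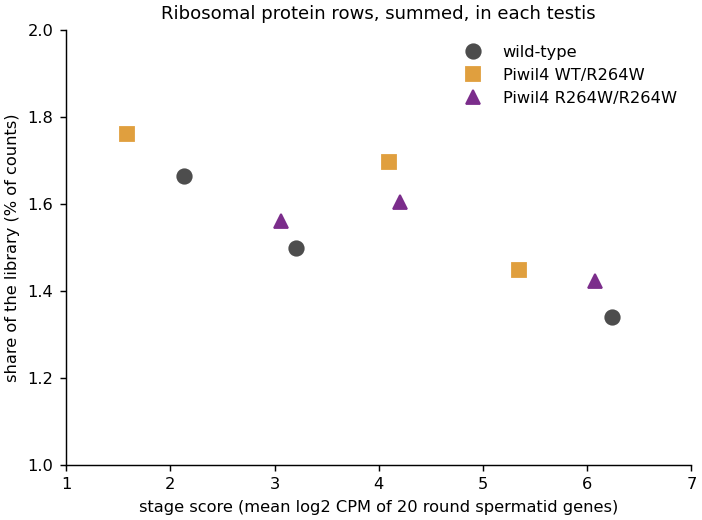
Share of all counts of a library (percent) taken by the 94 rows, against the stage score, with 1 point per testis and the genotype as shape and colour. The share lies at 1.76% in the testis of lowest score and at 1.34% in that of highest score, and the genotypes are interleaved.

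Marker lists moved with the score beside the ribosomal proteins. All 20 round spermatid genes rose, which is how the score was built, and 7 of 10 late spermatocyte genes rose. Of 8 early spermatocyte genes 6 fell, of 10 Sertoli cell genes 1 rose and 2 fell, of 7 spermatogonial genes 1 rose and 2 fell, and of 6 Leydig cell genes 2 rose. Their part in the result was not tested.

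Other genes of the translation machinery were counted in the same fit. Among 78 mitochondrial ribosomal proteins 3 rose and 6 fell, and among 24 ribosome assembly factors 2 rose and 2 fell. Among 13 elongation factors and other messages, listed as having pyrimidine starts, 1 rose and none fell. The start sequences of these 13 were not read here. The median slopes were -0.02 for the mitochondrial ribosomal proteins, -0.03 for the assembly factors and 0.02 for the elongation group, against -0.04 for the members and -0.01 for all genes.

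The comparison of genotypes asked whether the R264W substitution altered these messages. No member had an adjusted p under 0.05 in any of the 3 comparisons, by edgeR's quasi-likelihood test, DESeq2 or limma, and no gene of the whole table had one in the quasi-likelihood test. In Piwil4 R264W/R264W against wild-type testes, 0 of 86 members had an unadjusted p under 0.05, with 1.26% of the 15543 genes tested past it. DESeq2 and limma also gave 0. At that threshold 69 of 19394 genes were higher and 85 lower in DESeq2, and 80 of 14177 and 61 in limma. The median log2 difference was 0.02 for the members and -0.01 for all genes. Rpl28 was the only tested member whose groups did not overlap, higher in the homozygous testes by 0.14 log2 (unadjusted p = 0.174, edgeR), where 5.58% of all genes did not overlap and 2.15% were higher without overlap. The pseudogene Rps18-ps5, removed by the filter, had a log2 difference of -2.44 without it (unadjusted p = 0.0283, edgeR), and it rests on at most 5.06 counts in a library.

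Against Piwil4 WT/R264W testes, the homozygous testes had 2 members with an unadjusted p under 0.05, both lower, where 2.22% of 15463 genes passed that threshold and 1.05% were lower. Rpl10-ps3 had 35.5, 44.5 and 51.9 FPKM in Piwil4 WT/R264W and 33.0, 36.6 and 28.4 in Piwil4 R264W/R264W, a log2 difference of -0.39 (SE 0.15, unadjusted p = 0.0379, adjusted p = 0.948, edgeR). Its groups overlapped, and it shares its coding sequence with Rpl10. Rpl10a, a 60S protein unrelated in sequence to Rpl10 despite its name, had 159.6, 178 and 182 FPKM in the heterozygous and 162, 149.9 and 134 in the homozygous testes, a log2 difference of -0.19 (SE 0.08, unadjusted p = 0.04998, adjusted p = 0.948, edgeR). The groups overlapped here too. The median difference of the members was -0.06 log2 against 0.01 for all genes. Of the members 73 of 86 were negative, and of all genes 7520 of 15463. Beside this, the homozygous testes had higher values of 20 of 20 round spermatid genes (median 0.57 log2) and of 10 of 10 late spermatocyte genes, and lower values of 8 of 8 early spermatocyte, 8 of 10 Sertoli cell and 7 of 8 spermatogonial genes, and their part in the result was not tested. Rpl36al was the single member without overlap, by 0.04 log2 (unadjusted p = 0.565, edgeR), where 7.06% of all genes had none and 3.34% were higher without overlap.

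In Piwil4 WT/R264W against wild-type testes a single member passed an unadjusted p of 0.05. Rps27rt had counts of 14.6, 16.8 and 25.5 in Piwil4 WT/R264W whereas the wild-type testes had 6.20, 4.38 and 10.7. Every heterozygous testis was above every wild-type one, and the homozygous testes, with 8.26, 27.6 and 17.4, lay across both. The log2 difference was 1.54 (SE 0.50, unadjusted p = 0.0190, adjusted p = 0.9998, edgeR), where 1.11% of 15413 genes passed that threshold and 0.344% were higher. The difference of its ratio to Rps27 was 1.43 log2 (exact permutation p = 0.1, two-sided, the smallest that 3 against 3 allows). These are counts that cannot be separated from those of Rps27 within the coding sequence, and the unadjusted p rose above 0.05 without wild-type replicate 1 (0.0510), wild-type replicate 2 (0.0602) or Piwil4 WT/R264W replicate 3 (0.0790).

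Besides Rps27rt, the groups of Rpl28, Rpl35 and Rps9 also lay wholly higher in the heterozygotes than in the wild-type mice, by 0.17, 0.13 and 0.17 log2. These 4 of 86 members compare with 5.36% of all genes without overlap, and 2.41% in that direction. The median log2 difference was 0.08 for the members and -0.02 for all genes. Of the members 75 of 86 were positive, and of all genes 6921 of 15413. Beside this, 19 of 19 round spermatid genes (median -0.35 log2) and 10 of 10 late spermatocyte genes were lower in the heterozygous testes, and 10 of 10 Sertoli cell, 6 of 8 early spermatocyte and 6 of 7 spermatogonial genes were higher, and their part in the result was not tested. The wild-type samples of this comparison are also those of the comparison with homozygous testes. In that comparison 56 of 86 members and 7462 of 15543 genes were positive.

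**Figure D5:**
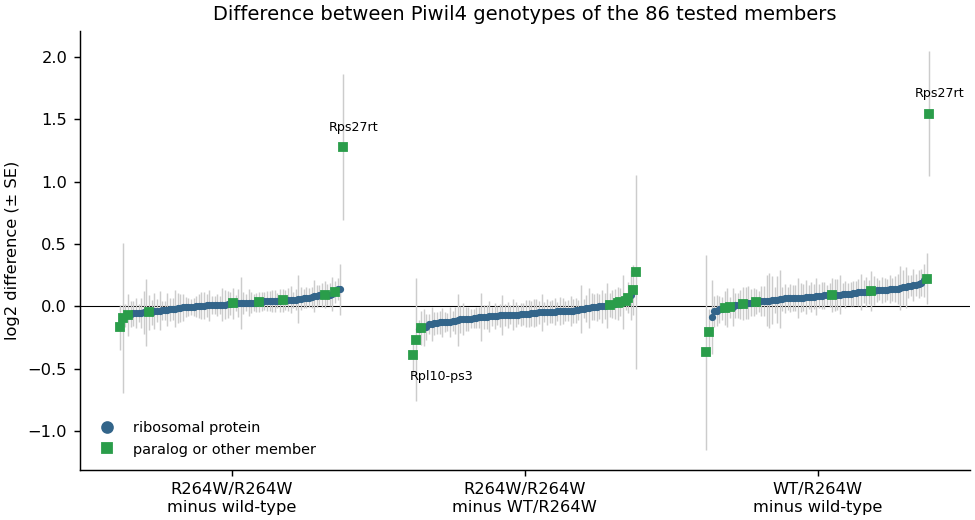
Log2 difference (± SE) of each of the 86 tested members in the 3 comparisons of genotypes, ribosomal proteins in blue and other members in green. Nearly all lie close to 0, with Rps27rt at 1.28 and 1.54 against the wild-type testes and Rpl10-ps3 at -0.39.

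For the copies of X-linked genes, the genotype means of the ratio to the parent lay within the spread of the testes. The log2 ratio of Rpl10l to Rpl10 was 1.62 ± 0.38 (SD, n = 3) in wild-type, 1.64 ± 0.51 in Piwil4 WT/R264W and 1.60 ± 0.42 in Piwil4 R264W/R264W testes, and that of Rpl39l to Rpl39 was 3.35 ± 0.60, 3.44 ± 0.43 and 3.41 ± 0.32. For Rpl36al the values were 1.64 ± 0.21, 1.59 ± 0.36 and 1.72 ± 0.18. Over the 8 pairs and 3 comparisons, exact two-sided permutation tests gave p between 0.1 and 1, and 3 against 3 allows none under 0.1. Summed over all members, the share of counts was 1.502% ± 0.162 in wild-type, 1.63% ± 0.165 in Piwil4 WT/R264W and 1.53% ± 0.0950 in Piwil4 R264W/R264W testes. Exact permutation p for the 3 comparisons of the share were 0.8, 0.4 and 0.4.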

How the data were processed

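RNA was sequenced from whole testes of 9 mice at 3 weeks of age, 3 of each Piwil4 genotype, and samples were grouped by the genotype in the labels. Per the labels, the submitters' processing notes name fastp (0.18.0), StringTie (1.3.1), DESeq2 and the mm39 build; the aligner and the counting tool are not given in the sources used here. The authors deposited an FPKM value, rounded by them, and for each gene an estimated count without scaling for depth; 89.2% of the estimated counts were whole numbers. Libraries held 17.96 to 24.3 M counts, and a count of 0 allows up to 3 counts, which covers counting error only. No batch is given in the labels. How the counting split reads between near-identical genes is not given in the sources used here.

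After rounding to whole numbers, counts were fitted in R (4.3.3) with edgeR (4.0.16) after filterByExpr and TMM scaling, with the quasi-likelihood test, two-sided, and Benjamini-Hochberg adjustment over all genes tested. Pairs of genotypes were fitted separately. The stage score (mean log2 CPM of 20 genes, prior count 1) was fitted as a continuous term beside genotype over 9 libraries. FPKM ratios used a pseudocount of 0.1, and ratios and shares were compared by exact permutation tests. Fits were tested on simulated data. Alternatives were DESeq2 (1.42.0), limma (3.58.1) on log2(FPKM + 0.1) with a mean FPKM reaching 0.5, other scalings, no filter, a late spermatocyte score, other pseudocounts, a replicate block and leaving out libraries. Removing genotype means and adding Rpl10-ps3 to Rpl10 were chosen after seeing the data.

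The members, pairs and gene lists were chosen with earlier results of these data known. Named genes were the paralog pairs, the X-linked members, members past an unadjusted p of 0.05 between genotypes, the members of smallest p among those changing with the score, and the 3 highest and the 3 lowest members outside the pseudogenes. Rpl35, Rpl28, Rps9 and the low pseudogenes fall outside this rule and were added once their values had been seen. Of the 94 members, 93 were matched to GENCODE M21 (GRCm38), which gave chromosomes and coding sequences. Pseudogenes were classed by their symbol alone, and those that were matched are listed as protein-coding in that annotation. RefSeq promoters (GRCm38.p6) gave the start sequences.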

Additional observations from a re-analysis of the deposited data

How the results depend on the processing

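No member reached an adjusted p under 0.05 between genotypes under any alternative run. The number at an unadjusted p under 0.05 for homozygous against wild-type testes (0) was 1 without the filter, 1 with all 9 libraries in one fit and 2 with the stage score as a covariate, and 0 to 1 with a library left out. Over all genes, 98 of 19394 were higher and 127 lower without the filter. With all 9 libraries these were 95 and 119 of 15771, and with the covariate 213 and 201. The 1 arose without wild-type replicate 3 (84 of 15885 genes higher, 57 lower) or homozygous replicate 1 (69 of 15798 higher, 80 lower). Against Piwil4 WT/R264W the number (2) was 1 with DESeq2, RLE size factors, library totals, no filter or limma, 0 with all 9 libraries in one fit, and 0 to 6 with a library left out. Over all genes, 170 of 19290 were higher and 120 lower with DESeq2. With RLE size factors these were 197 and 140 of 15463, and with library totals 126 and 155. Without the filter these were 212 and 184 of 19290, with limma 117 and 179 of 14166. With all 9 libraries they were 152 and 153 of 15771. The 6, all lower, arose without Piwil4 WT/R264W replicate 1 (154 of 15584 genes higher, 79 lower). For Piwil4 WT/R264W against wild-type (1) the number was 2 with limma, 2 with all 9 libraries and 5 with the stage score as a covariate, and 0 to 2 with a library left out. Over all genes, 98 of 14145 were higher and 43 lower with limma. With all 9 libraries these were 110 and 180 of 15771, and with the covariate 250 and 335. The 2 with a library left out arose without wild-type replicate 3 (93 of 15749 genes higher, 151 lower).

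The 27 members that fell with the stage score were 57 with library totals, 53 with limma and 1 without the 2 farthest testes. They were 11 without wild-type replicate 1, 12 without wild-type replicate 3, 14 without Piwil4 WT/R264W replicate 3 or Piwil4 R264W/R264W replicate 3, 17 without Piwil4 R264W/R264W replicate 2, and at most 35. Rising members (0) were 1 without the genotype term (3062 of 15771 genes) and 2 with the late spermatocyte score (3183). They were 0 to 3 with a library left out. The cause was not tested.

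For the ratio of Rpl10l to Rpl10, r was 0.78 without the 2 farthest testes (adjusted exact permutation p = 0.129), 0.91 with genotype means removed (adjusted exact permutation p = 0.0556) and 0.82 to 0.94 with a library left out, the lowest without Piwil4 WT/R264W replicate 3 (adjusted exact permutation p = 0.0578). Rpl39l gave 0.95 with genotype means removed (adjusted exact permutation p = 0.0556). Rps27l gave -0.64 without the 2 farthest testes (adjusted exact permutation p = 0.228), -0.83 with genotype means removed (adjusted exact permutation p = 0.0556) and -0.90 to -0.72 with a library left out, and its adjusted exact permutation p was 0.0503 without wild-type replicate 1 and 0.0627 without Piwil4 WT/R264W replicate 3. Rps27rt, with r = -0.03, gave 0.0235 with a pseudocount of 1, 0.61 without the 2 farthest testes and -0.19 to 0.26 with a library left out. Rpl22l1 ranged from 0.29 to 0.72 (adjusted exact permutation p = 0.0489 without Piwil4 WT/R264W replicate 1), Rpl3l from -0.83 to -0.49 (adjusted exact permutation p = 0.0270 without Piwil4 WT/R264W replicate 2) and Rpl7l1 from -0.25 to 0.23. The summed share gave -0.65 without the 2 farthest testes, and as a share of FPKM its differences were -0.31 percentage points between homozygous and heterozygous testes and 0.31 between heterozygous and wild-type testes.

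Same-numbered testes did not deviate together. The correlation of their deviations ran from -0.73 to 0.78 over 9 pairs, and a library correlated best with its own number in 4 of 18 cases, so the numbers were not taken as a pairing. With the replicate block, 12 members fell with the score, and 0 had an unadjusted p under 0.05 between homozygous and heterozygous testes. Low counts limit Rps27rt, Rpl3l and the pseudogenes, and identical coding sequences limit Rps27rt and Rpl10-ps3 at any depth.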
